A study of Vulpes lagopus with 12 samples.

Results

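The aryl hydrocarbon receptor AHR, its partner ARNT and 6 of its target genes were followed in blood RNA of the Arctic fox (Vulpes lagopus) on Affymetrix Canine Genome 2.0 arrays. Members were all probe sets whose only gene symbol in the probe annotation was AHR, ARNT, CYP1B1, CYP1A2, TIPARP, NQO1, ALDH3A1 or CYP2S1. All 8 genes had such a probe set, 14 of 42924 tested probe sets in all, and 5 of the genes had several. The 12 arrays were 11 of fox blood, collected into RNA-stabilising tubes, and 1 whose title reads canine control. Blood cells of the foxes were looked at for polychlorinated biphenyls (PCBs) and mercury, per the design text, but the labels give no exposure, age, sex or treatment for single foxes, so no fox could be placed by exposure. The control array carries the same organism and blood labels as the foxes, and what RNA it held is not stated there. The control went against its blood label: 11 of 13 liver and 9 of 13 intestine and stomach markers were lower in the foxes, where 18.5% of all genes were. Of neutrophil markers 5 of 6 and of B cell markers 8 of 8 were higher in the foxes, beside 44.6% of all genes, and of monocyte markers 4 of 7 and T cell markers 6 of 10 (1 lower). The median difference, fox minus control, was 4.17 for neutrophil markers. It was 0.70 for B cell markers, near the 0.53 of all genes. Numbers 1 to 11 name the foxes in accession order. Probe sets are named by the number in the array maker's identifier.

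AHR is a transcription factor that waits in the cytoplasm, bound to HSP90 chaperones, until it binds a ligand such as dioxin, a dioxin-like PCB or a tryptophan metabolite. It then enters the nucleus, pairs with ARNT and binds short DNA elements beside genes such as those of the CYP1 family of cytochromes P450. ARNT also pairs with the hypoxia factors, and several AHR targets, NQO1 among them, are shared with the oxidant sensor NRF2.

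Values were RMA values on the log2 scale, so a difference of 1 is a doubling. They can be compared between fox arrays for a probe set, but not between probe sets. The probes are those of a canine array, and what RNA the control held is not stated. Fox minus control can therefore also hold differences in probe match, and their part was not tested. The table gives no detection call, so whether a low value is expression or background cannot be told. Foxes 9, 10 and 11 stood apart on a quality control of the array, the GAPDH 3' minus middle difference, at 0.42 to 1.08. It was 2.56 to 3.19 for foxes 1 to 8, and −0.08 on the canine control. Values are therefore also given without these 3 foxes, and correlations were taken within foxes 1 to 8 only. A larger difference means more 3' than middle signal, so the foxes kept lie farther from the control on this measure. Leaving out foxes 9, 10 and 11 is not to be read as a removal of poorer arrays. In whole blood, fewer cells of a type and less RNA per cell cannot be told apart.

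The receptor and its partner were even across the foxes. AHR had a lowest, median and highest value of 6.99, 7.25 and 7.71 in the 11 foxes on its probe set of higher mean (probe set 13336), against 7.33 on the canine control. Its other probe set (probe set 4552) ran from 4.75 to 5.24 in the foxes, with 4.88 on the canine control. Both control values thus lay inside the foxes. ARNT, measured by probe set 19026, had 7.38, 7.62 and 7.90 as its lowest, median and highest fox values, against 6.51 on the canine control, below all foxes. The SDs were 0.21 and 0.13 for the AHR probe sets and 0.16 for ARNT (n = 11), beside a median SD of 0.22 over all probe sets.

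**Figure D1:**
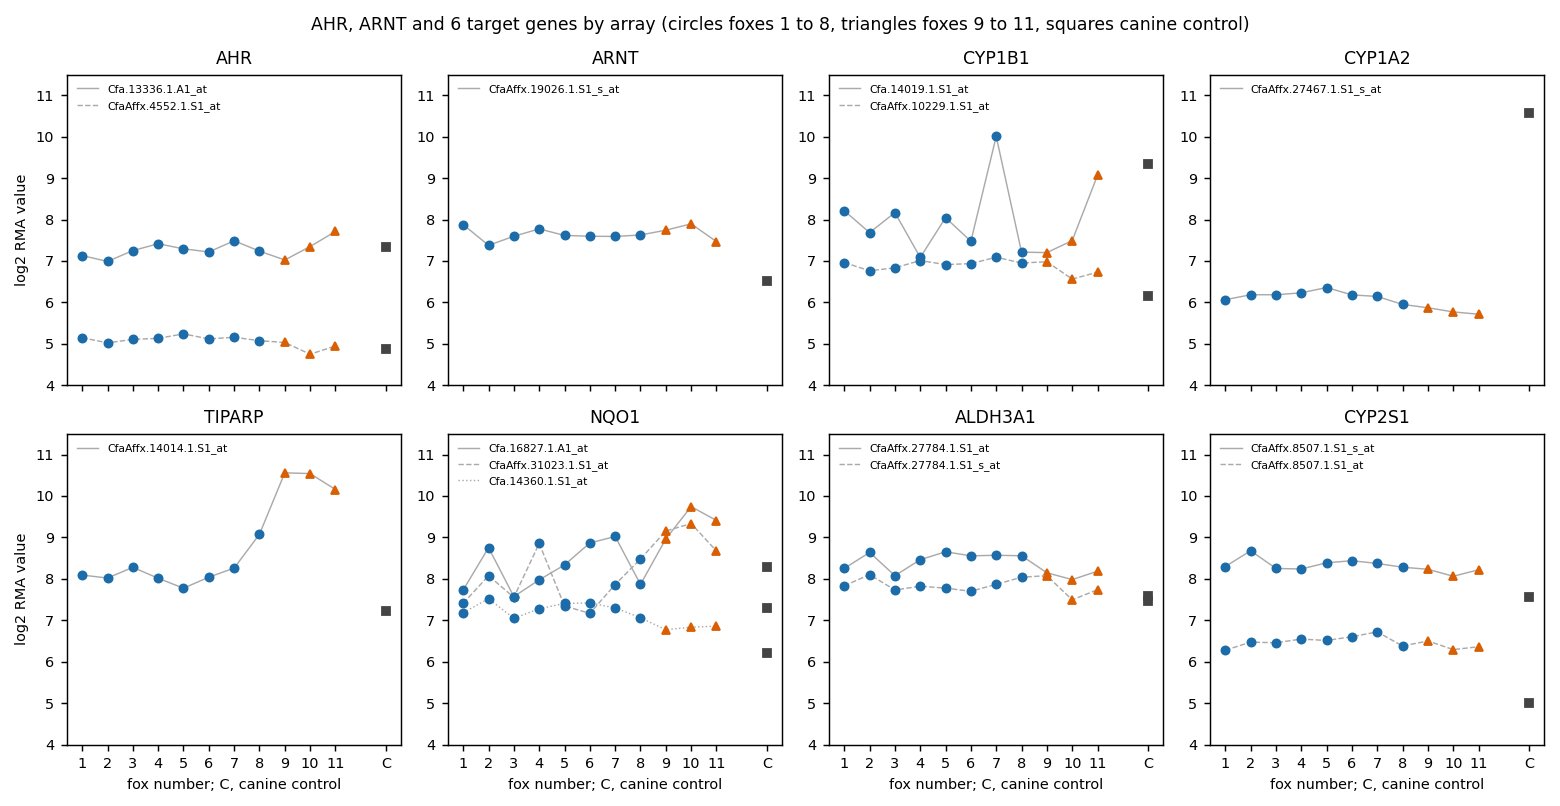
RMA values (log2, vertical axis) of the 14 probe sets in each of the 11 foxes and on the canine control (C), 1 panel a gene; the lines join the points of a probe set and imply no order. CYP1B1 peaks in foxes 7 and 11 on 1 probe set only, TIPARP is highest in foxes 9, 10 and 11, and CYP1A2 is higher on the control (10.57) than in any fox.

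Of the 8 genes, 3 varied between foxes with an SD of at least 0.5: TIPARP (1.09), CYP1B1 (0.89) and NQO1 (0.72), each by its probe set of highest mean. Among all genes 18.3% reached that SD over 11 foxes, and 9.61% did within foxes 1 to 8. Within foxes 1 to 8 CYP1B1 (0.92) and NQO1 (0.56) remained above it and TIPARP (0.39) did not. Single foxes carried part of this spread: without fox 7 as well, the SD of CYP1B1 was 0.46, under 0.5, and that of NQO1 0.50, and without fox 8 that of TIPARP was 0.17. The other 5 genes had SDs between 0.16 and 0.25 over the 11 foxes.

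CYP1B1 encodes a cytochrome P450 of extrahepatic tissues that oxidises polycyclic aromatic hydrocarbons and oestrogens, and is a classic AHR target. On probe set 14019 it stood at 8.21, 7.68, 8.17, 7.08, 8.04, 7.48, 10.01 and 7.21 in foxes 1 to 8, at 7.20, 7.49 and 9.07 in foxes 9, 10 and 11, and at 9.34 on the canine control. Fox 7 was the highest and fox 11 the next, 0.94 lower, and these foxes lie on different sides of the GAPDH split. The SD within foxes 1 to 8 was above that of 99.4% of all probe sets, and without fox 7 above that of 91.1%.

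The other CYP1B1 probe set, probe set 10229, varied less. It ran from 6.56 to 7.09 over the 11 foxes, with an SD of 0.10 within foxes 1 to 8, and stood at 6.15 on the canine control. Fox 7 was its highest fox as well (7.09, with the next at 7.01), but fox 11 stood at 6.73, inside the other foxes. The correlation between both probe sets within foxes 1 to 8 was r = 0.42 (rho = 0.10; two-sided exact permutation p = 0.304 and 0.840; adjusted over 7 pairs 0.532 and 0.840), and r was −0.13 without the 2 foxes farthest from the median. The wide range of CYP1B1 thus rests on 1 probe set, and the mean of both had an SD of 0.46 over the 11 foxes.

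Of the blood cell markers measured beside CYP1B1, those of monocytes and neutrophils were not at an end of their range in fox 7. The mean of 7 monocyte markers, each centred on its fox mean, was −0.22 in fox 7, inside foxes 1 to 8 (−0.48 to 0.03), and for 6 neutrophil markers it was −0.53 (−0.94 to 0.51). T cell markers were highest in fox 7 among foxes 1 to 8, at 0.02, with fox 8 at 0.01. Those of B cells (0.09), platelets (−0.20) and erythroid cells (0.11) were inside foxes 1 to 8. In fox 11 the means were 0.62 for monocyte, 0.09 for neutrophil and 0.37 for T cell markers. They were −0.15 for B cell, 0.37 for platelet and 0.20 for erythroid markers. The part of cell makeup in the CYP1B1 values was not tested.

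NQO1, the quinone reductase of AHR and NRF2 control, had 3 probe sets that differed in pattern. Probe set 16827 had a lowest, median and highest value of 7.57, 8.75 and 9.74 in the foxes and 8.29 on the canine control. Probe set 31023 had 7.17, 8.07 and 9.33 in the foxes and 7.30 on the canine control. Probe set 14360 had 6.77, 7.18 and 7.52 in the foxes and 6.21 on the canine control. The control lay inside the foxes on probe sets 16827 and 31023, and below all foxes on probe set 14360.

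Foxes 9, 10 and 11 stood on opposite ends of these probe sets. Probe set 16827 ran from 8.96 to 9.74 in foxes 9, 10 and 11 and from 7.57 to 9.02 in foxes 1 to 8. Probe set 31023 ran from 8.67 to 9.33 in foxes 9, 10 and 11 and from 7.17 to 8.85 in foxes 1 to 8. On both the ranges overlapped at the upper end of foxes 1 to 8. Probe set 14360 was lower in all of foxes 9, 10 and 11 (6.77 to 6.86) than in any of foxes 1 to 8 (7.05 to 7.52).

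Within foxes 1 to 8 the NQO1 probe sets split the other way. Probe set 16827 and probe set 14360 had r = 0.78 (rho = 0.81; two-sided exact permutation p = 0.0277 and 0.0218; adjusted over 7 pairs 0.194 and 0.152), and r was 0.94 without the 2 farthest foxes. Probe set 31023 had r = −0.18 with each of them (unadjusted exact p = 0.648 and 0.657). Its highest values there were in fox 4 (8.85) and fox 8 (8.48), in which probe set 16827 was at 7.98 and 7.86. No pair of probe sets passed after adjustment by exact permutation, and 1 of 7 had an unadjusted p under 0.05 by r and 1 by rho. The median r over the 7 pairs of probe sets of these genes was 0.42, beside 0.12 over all 23693 such pairs of any gene, of which 40.4% were negative.

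**Figure D2:**
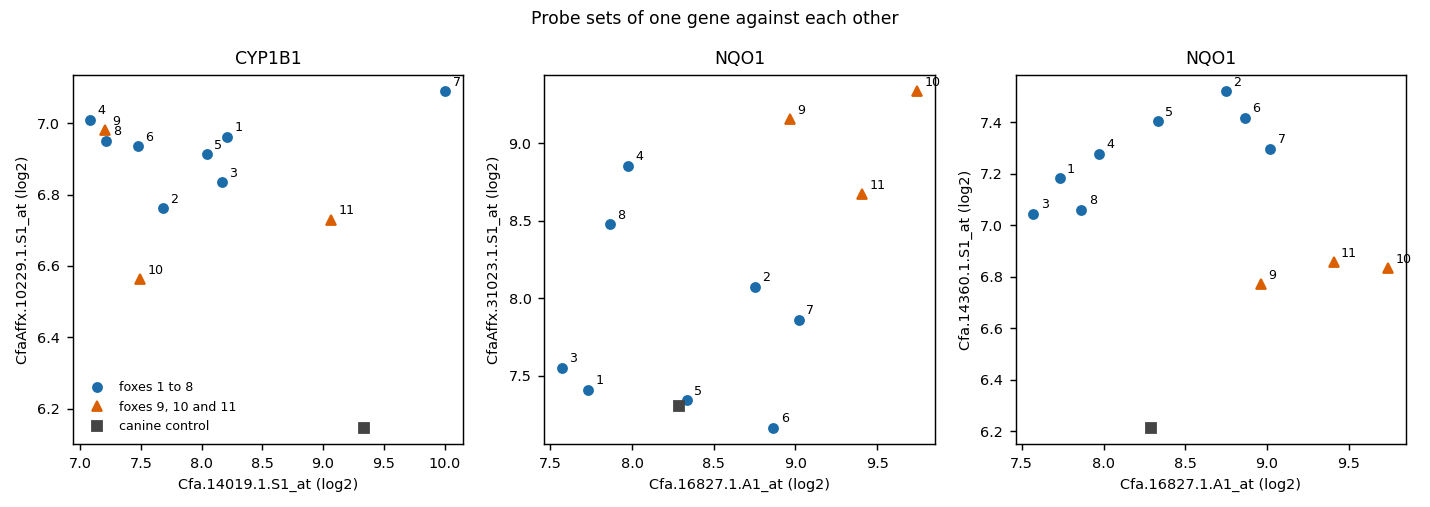
RMA values (log2) of 2 probe sets of a gene against each other for CYP1B1 (left) and NQO1 (middle and right); numbers mark the foxes, triangles are foxes 9, 10 and 11, and the square is the canine control. Fox 7 is alone at 10.01 on the horizontal axis for CYP1B1, and in the right panel foxes 9, 10 and 11 lie lower on probe set 14360 (6.77 to 6.86) than foxes 1 to 8 (7.05 to 7.52).

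TIPARP, an ADP-ribosyltransferase that is induced by AHR and represses it in turn, followed the split on GAPDH. Its values were 10.56, 10.54 and 10.16 in foxes 9, 10 and 11 and 7.77 to 9.07 in foxes 1 to 8, with 7.21 on the canine control. Fox 8 (9.07) was the highest of foxes 1 to 8, and the next was fox 3 at 8.28. Among all probe sets, 12.6% had foxes 9, 10 and 11 all above foxes 1 to 8 and 14.6% had them all below. Of the 14 probe sets of the AHR genes 1 was of the first kind, and 3 were of the other: CYP1A2, NQO1 on probe set 14360 and CYP2S1 on probe set 8507_s_at. Several marker means also differed along this split, in both directions. The mean of the monocyte markers was 0.62 to 0.78 in foxes 9, 10 and 11 and −0.48 to 0.03 in foxes 1 to 8, with 4 of 7 markers not overlapping. That of the T cell markers was 0.29 to 0.54 in foxes 9, 10 and 11 and −0.22 to 0.02 in foxes 1 to 8, with 4 of 10 not overlapping. That of 8 platelet markers was 0.37 to 0.66 in foxes 9, 10 and 11 and −0.67 to 0.25 in foxes 1 to 8, with 3 not overlapping. The B cell mean was lower, at −0.24 to −0.05 in foxes 9, 10 and 11 and 0.00 to 0.14 in foxes 1 to 8, with 0 of 8 markers not overlapping. The means of the 6 organ lists (liver, intestine and stomach, lung and cornea, skin, muscle and kidney) were also lower without overlap, within −0.31 to −0.09 in foxes 9, 10 and 11 and −0.09 to 0.17 in foxes 1 to 8. Neutrophil means (0.09 to 1.32 in foxes 9, 10 and 11 and −0.94 to 0.51 in foxes 1 to 8) and erythroid means (−0.03 to 0.20 in foxes 9, 10 and 11 and −0.50 to 0.38 in foxes 1 to 8) overlapped. The part of array quality or cell makeup in the TIPARP values was not tested.

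The canine control array asks where control RNA lay relative to fox blood. By limma, with Benjamini-Hochberg adjustment over all 42924 probe sets and a threshold of 0.05, 6 of the 14 probe sets were higher in the foxes, 1 was lower and 7 were not called. The background was high: 61% of all probe sets were called, 42.1% higher and 18.9% lower in the foxes, so a share of 7 in 14 is below it. Taken by gene, 3 of 8 were higher and 1 lower, where 63.2% of all genes were called. The control lay outside all foxes on 8 of 14, beside 77% of all probe sets. The median difference, fox minus control, was 0.75 over the 14 and 0.46 over all probe sets (0.48 and 0.19 with arrays centred on their medians). With 1 control array the fit takes its spread from the foxes, and an exact permutation test of 1 array against 11 could not give a p below 0.0833.

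CYP1A2, the CYP1 enzyme known from liver, was lower in the foxes and the member farthest from the control. Probe set 27467 had a lowest, median and highest value of 5.71, 6.14 and 6.36 in the foxes, against 10.57 on the canine control. The difference was −4.51 (SE 0.21, adjusted p by limma 2.89e-09), lower in 11 of 11 foxes. Liver markers lay the same way: of 13 measured, 11 were lower and 0 higher in the foxes, and their centred mean was −0.20 to 0.11 in the foxes and 4.77 on the canine control. Of 13 intestine and stomach markers 9 were lower and 1 was higher in the foxes. Their part in the CYP1A2 difference was not tested. In Affymetrix naming the ending s_at marks probes that match more than one transcript, and whether this probe set also reads the close relative CYP1A1, which had no probe set of its own single symbol, was not tested.

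The other called members were higher in the foxes. CYP2S1, an AHR-responsive cytochrome P450 of epithelia, averaged 6.46 ± 0.13 (SD, n = 11) in the foxes and 4.99 on the canine control on probe set 8507_at, a difference of 1.47 (SE 0.16, adjusted p by limma 8.36e-06). On probe set 8507_s_at it averaged 8.31 ± 0.16 (SD, n = 11) in the foxes and 7.55 on the control, a difference of 0.76 (SE 0.17) that was 0.50 with arrays centred on their medians. Both probe sets of CYP2S1 thus gave the same direction. ARNT differed by 1.14 (SE 0.18, adjusted p by limma 0.000226) and was higher in 11 of 11 foxes.

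ALDH3A1, an aldehyde dehydrogenase known from cornea and stomach, gave a call on 1 of 2 probe sets. Probe set 27784_at averaged 8.37 ± 0.25 (SD, n = 11) in the foxes and 7.45 on the canine control, a difference of 0.92 (SE 0.25, adjusted p by limma 0.00783). Probe set 27784_s_at averaged 7.83 ± 0.18 (SD, n = 11) in the foxes and 7.59 on the control, which lay inside the foxes, and its difference of 0.24 (SE 0.19, adjusted p 0.284) turned to −0.023 with arrays centred on their medians.

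CYP1B1 gave opposite signs on its 2 probe sets. On probe set 14019 the foxes averaged 7.97 ± 0.89 (SD, n = 11) against 9.34 on the control, a difference of −1.37 (SE 0.84, adjusted p by limma 0.172) with only fox 7 above the control. Without fox 7 it was −1.57 with an adjusted p of 0.0369, and over all settings the adjusted p ran from 0.0369 to 0.438. On probe set 10229 the foxes averaged 6.89 ± 0.15 (SD, n = 11) against 6.15, a difference of 0.74 (SE 0.17, adjusted p 0.003), higher in 11 of 11 foxes. It was 0.45 (adjusted p by limma 0.0286) after quantile normalization again and 0.47 with arrays centred on their medians.

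NQO1 was called on 1 of 3 probe sets, probe set 14360, with a difference of 0.94 (SE 0.26, adjusted p by limma 0.00848). The differences on the others were 0.28 (SE 0.68, adjusted p 0.736) and 0.87 (SE 0.73, adjusted p 0.310). The smaller of these turned to −0.025 without foxes 9, 10 and 11. TIPARP was above the control in 11 of 11 foxes, by 1.59 (SE 1.03, adjusted p by limma 0.195). Within foxes 1 to 8, where its SD was 0.39 and not 1.09, its difference was 0.98 with an adjusted p of 0.0308 (0.0308 to 0.319 over all settings). For AHR the differences were −0.04 (SE 0.22, adjusted p 0.871) and 0.19 (SE 0.15, adjusted p 0.292). The difference of 0.19 turned to −0.077 with arrays centred on their medians.

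**Figure D3:**
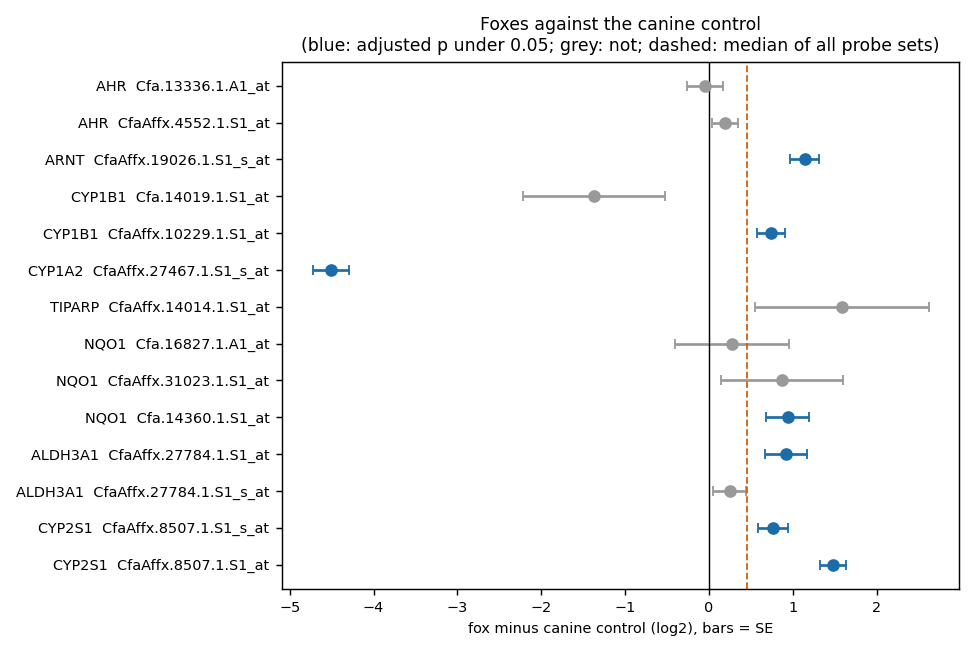
Fox minus canine control (log2, horizontal axis) for each of the 14 probe sets, with the SE of limma as bars; blue marks an adjusted p under 0.05, grey the others, and the dashed line the median of all probe sets (0.46). CYP1A2 lies alone at −4.51, and the 6 called positive values lie between 0.74 and 1.47.

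Whether AHR and its targets moved together was read within foxes 1 to 8. Of 28 pairs of genes, 0 passed after adjustment by two-sided exact permutation of r and 0 of rho; 4 had an unadjusted p under 0.05 by r and 1 by rho. AHR had r between −0.60 and 0.41 with the other 7 genes, with CYP2S1 at the low end (unadjusted exact p = 0.130) and CYP1B1 at the high end (0.310). The lowest adjusted p was that of CYP1A2 with TIPARP (r = −0.85, rho = −0.79, exact p = 0.00868 and 0.0248, adjusted 0.243 and 0.582), and r was −0.21 without the 2 farthest foxes. NQO1 had r = 0.73 with ALDH3A1 and r = 0.69 with CYP2S1 (rho = 0.67 each), at unadjusted exact p of 0.0329 and 0.0355 for r, which failed the adjustment (0.282 each).

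None of 48 pairs of a member gene and a blood cell marker mean passed after adjustment within foxes 1 to 8, by r or by rho; 4 had an unadjusted exact p under 0.05 by r and 1 by rho. The highest r was that of ALDH3A1 with erythroid markers (r = 0.81, rho = 0.60, two-sided exact permutation p = 0.0158 and 0.132, adjusted 0.576 and 0.962), and it was 0.22 without the 2 farthest foxes. TIPARP had r = 0.68 with monocyte and 0.73 with T cell markers (adjusted exact p = 0.576 each).

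For the genes with an SD of at least 0.5 within foxes 1 to 8, the 5 most alike genes were sought by r over these 8 foxes, among 1297 other genes with an SD of at least 0.5 there and a mean over the median of genes. For NQO1 (probe set 16827) they were PSMD10, a proteasome assembly factor (r = 0.81), HRH2, the histamine H2 receptor (0.76), SLC25A11, a mitochondrial oxoglutarate carrier (0.71), KDM4B, a histone demethylase (0.69), and ZDHHC20, a palmitoyltransferase (0.68). For CYP1B1 the highest values were lower than these, and belonged to LXN (r = 0.53), AVL9 (0.51), the prostaglandin reductase PTGR1 (0.46), EPB41L3 (0.39) and NQO1 (0.39). Without fox 7 these 5 values were 0.18, −0.49, −0.06, 0.34 and −0.25. In foxes not used for this choice, CYP1B1 stood 1.72 higher in fox 11 than in the mean of foxes 9 and 10, and LXN, AVL9, PTGR1, EPB41L3 and NQO1 differed there by −0.30, 0.58, 0.80, 0.56 and 0.05. For the 5 genes listed with NQO1, r without fox 7 was 0.73, 0.76, 0.62, 0.60 and 0.60. In foxes 9, 10 and 11 NQO1 ran from 8.96 to 9.74, overlapping foxes 1 to 8 only at their upper end. There PSMD10, HRH2, SLC25A11 and KDM4B lay inside their values of foxes 1 to 8, and ZDHHC20 above them. Since all of these genes were picked as the highest of many, no p is given.

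The wider pathway was described by 6 lists, of which 104 genes were measured beside the members. Of these 39 were higher in the foxes, 18 lower and 47 not called by limma, with a median difference of 0.31; among all 15115 genes 44.6% were higher and 18.5% lower, with a median of 0.53. Without foxes 9, 10 and 11 there were 40 higher and 30 lower. Over all 15115 genes there were 7792 and 3462 in that setting, beside 6748 and 2799 with all foxes. Centring the arrays on their medians gave 19 and 21 of the pathway genes, with a median of 0.04. Over all 15115 genes it gave 3923 and 3180, with a median of 0.26.

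ARNT partners and relatives were higher in the foxes where they were called. Of 12 measured, 8 were higher and 0 lower, with a median of 0.76 (0.49 and 5 higher with arrays centred on their medians, and 1 lower without foxes 9, 10 and 11). Beside them, 44.6% of all genes were higher and 18.5% lower, with a median of 0.53. With centred arrays 3923 of all 15115 genes were higher, with a median of 0.26. Without foxes 9, 10 and 11, 3462 of all 15115 genes were lower. HIF3A, a hypoxia-inducible factor subunit, averaged 10.34 ± 0.76 (SD, n = 11) in the foxes and 8.24 on the control, a difference of 2.10 (adjusted p by limma 0.0247). The neuronal factor NPAS4 differed by 1.14, EPAS1 (HIF2 alpha) by 1.11 and the circadian CLOCK by 0.96. The circadian ARNTL was not called (−0.87, adjusted p 0.178). HIF1A was not called either (−0.79, adjusted p 0.437), and its fox values lay between 13.14 and 13.49 for foxes 9, 10 and 11 and between 11.03 and 12.92 for the rest. Genes that the hypoxia factors induce through ARNT gave 6 higher, 3 lower and 11 not called of 20, with a median of 0.09 that turned to −0.17 with centred arrays and to −0.05 without foxes 9, 10 and 11 (5 lower). The mitophagy receptor BNIP3L differed by 3.47 and the kinase PDK1 by −3.25. The peptide hormone ADM differed by −2.81 and the angiogenic VEGFA by −2.28.

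Proteins of the AHR complex, its import and its degradation gave 6 higher, 3 lower and 9 not called of 18. Their median was 0.06, was 0.34 after quantile normalization again, and turned to −0.21 with centred arrays and to −0.20 without foxes 9, 10 and 11 (6 lower). Over all 15115 genes 2799 were lower with all foxes and 3462 without foxes 9, 10 and 11. The nuclear exporter XPO1 differed by −2.86 and the importin KPNA2 by −2.52, while the coactivator CREBBP differed by 2.07 and the ubiquitin ligase scaffold CUL4B by 1.12. HSP90AB1 and HSP90AA1, the chaperones that hold AHR, were not called (−2.06 and −1.40, adjusted p 0.108 and 0.196). Both varied between foxes, with SDs of 1.12 and 0.96 (n = 11), and of 0.83 and 0.89 within foxes 1 to 8.

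Further AHR-responsive genes gave 11 higher, 4 lower and 8 not called of 23, with a median of 0.51. After quantile normalization again 5 were higher and 5 lower (median 0.29), and with centred arrays 3 and 5 (0.24). Of all 15115 genes 6748 were higher and 2799 lower as deposited. Those counts were 5022 and 2475 after quantile normalization again, and 3923 and 3180 with centred arrays. The 4 AHR-responsive genes lower as deposited were the fatty acid transporter CD36 (−6.48), the glucuronosyltransferase UGT1A6 (−2.78), the glutathione transferase GSTA4 (−2.55) and the actin-severing SCIN (−1.91). Among those that varied between foxes was XDH, xanthine dehydrogenase, with an SD of 0.98 (n = 11) and no call (−1.50, adjusted p 0.172). It stood at 11.36 to 11.84 in foxes 9, 10 and 11 and 9.07 to 10.41 in foxes 1 to 8, with an SD of 0.51 within foxes 1 to 8. Genes of the kynurenine pathway, which makes AHR ligands from tryptophan, gave 4 higher, 3 lower and 6 not called of 13, with a median of 0.44 (0.17, 1 higher and 3 lower with centred arrays, and 0.15 without foxes 9, 10 and 11). The hepatic TDO2 differed by −2.65 and the transaminase KYAT3 by −2.49. IDO1, the inducible first enzyme in immune cells, was not called (0.56, adjusted p 0.609) and had an SD of 0.98 over the foxes. Its SD within foxes 1 to 8 was 0.62, with foxes 9, 10 and 11 all above them. KMO had the largest SD of this list, 1.38, and 1.21 within foxes 1 to 8.

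NRF2 and the genes it controls, which include NQO1, gave 5 higher, 5 lower and 10 not called of 20. Their median was −0.12 (−0.03 after quantile normalization again and −0.38 with centred arrays). Without foxes 9, 10 and 11, 10 were lower, and the median was −0.19. Lower calls over all 15115 genes also rose in that setting, from 2799 to 3462. The peroxiredoxin PRDX1 differed by −3.12 and the ferritin chain FTH1 by −2.53, while the glutathione synthesis genes GCLM and GCLC differed by −5.70 and −1.84. The most variable between foxes were the ferritin chain FTL (SD 1.66) and the transketolase TKT (1.58), neither of them called. Both were higher in all of foxes 9, 10 and 11 than in any of foxes 1 to 8, within which their SDs were 0.98 and 0.78.

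**Figure D4:**
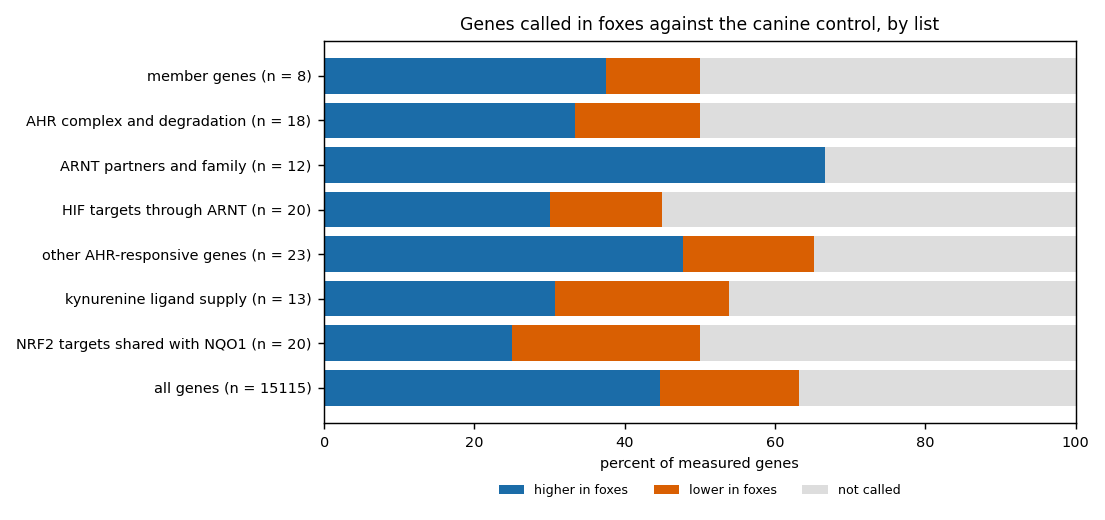
Percent of measured genes called higher (blue) or lower (orange) in the 11 foxes against the canine control, or not called (grey), for the 8 AHR genes, each of the 6 pathway lists and all genes. Of the lists only the ARNT partners had 0 genes lower in the foxes, with all foxes in the fit.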

How the data were processed

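Blood RNA of 11 foxes and 1 canine control was measured, and the authors deposited 1 table of log2 values per probe set, which the submitters' processing notes ascribe to RMA run in Affymetrix Expression Console. No version is stated, nor whether the 12 arrays were normalized as 1 set. Of its 43035 probe sets, 111 Affymetrix controls were left out of the tests. Genes (15115) were read from the 29254 probe sets with 1 symbol, each by the probe set of highest mean over all arrays, and members by every probe set. Precision is limited by the number of arrays. Nothing in the labels ties each sample to its own animal; p-values then measure only the spread between these samples.

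Foxes minus control was fitted with limma 3.58.1 (lmFit and eBayes) in R 4.3.3, with Benjamini-Hochberg adjustment. Correlations used two-sided exact permutation. The GAPDH split was set at the widest gap between foxes. Members and lists (6 of the pathway, 12 of cell types and organs) were chosen with earlier results of these data known. Beside the members, up to 4 genes per pathway list with the largest called difference and up to 4 with the largest SD (at least 0.5) could be named, and the 5 genes most alike. Alternatives were quantile normalization again, centring on array medians, trend and robust eBayes, leaving out probe sets below the median mean, a minimum absolute difference of 1, the foxes' range, averaging a gene's probe sets, Spearman correlation and each fox left out; leaving out foxes 9, 10 and 11, alone or with 1 further fox, was chosen after seeing the data. No genome positions or sequences are given.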

Additional observations from a re-analysis of the deposited data

How the results depend on the processing

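Over all probe sets 18091 were higher and 8092 lower in the foxes. Centring each array gave 9914 higher and 9348 lower. With an absolute difference of at least 1, 5179 were higher and 6637 lower, so more were lower than higher. With low probe sets left out, 9104 were higher and 3698 lower of the 21462 still tested, where 42924 were tested otherwise. Re-scaling moved the median difference of all probe sets, 0.46 as deposited, to 0.31 (quantile normalization again) and 0.19 (centred arrays). Of the 14 probe sets of the AHR genes, 6 higher and 1 lower as deposited, 2 were higher at an absolute difference of at least 1. With low probe sets left out 3 were higher and 0 lower of the 9 still tested, since 5 of the 14 were not tested. These were CYP1A2, AHR on probe set 4552, CYP1B1 on 10229, NQO1 on 14360 and CYP2S1 on 8507_at. The calls of CYP1A2, CYP1B1 and NQO1 thus rest on low probe sets alone. Leaving out single foxes gave 6 higher each time and 1 to 2 lower, the 2 coming without fox 7. Of the pathway genes (39 higher, 18 lower), 12 were higher and 16 lower at an absolute difference of at least 1. With centred arrays 19 and 21 were, and 30 were lower without foxes 9, 10 and 11. Over all 15115 genes (6748 higher, 2799 lower), 3923 and 3180 were with centred arrays. Without foxes 9, 10 and 11, 3462 of all genes were lower. Signs turned for AHR on probe set 4552 (−0.077) and ALDH3A1 on probe set 27784_s_at (−0.023) with centred arrays, and for NQO1 on probe set 16827 (−0.025) without foxes 9, 10 and 11; none of these was called. Averaging a gene's probe sets, 1 gene (TIPARP) and not 3 reached an SD of 0.5; without foxes 9, 10 and 11 and 1 further fox it was 1 to 2, the 1 coming without fox 7. For each of the 3 families of correlations the count passing adjustment was 0 in all 11 alternatives. Apart from averaging probe sets and leaving genes untested, the cause of these changes was not tested. No paired analysis was possible because no label ties the control array to a fox. The lack of detection calls limits what low values can show.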

Other observations

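Markers of blood cells and organs were counted in the same fit by limma, as context for the AHR genes. Of the measured markers, 4 of 7 of monocytes, 5 of 6 of neutrophils, 6 of 10 of T cells, 8 of 8 of B cells, 5 of 8 of platelets and 6 of 7 of erythroid cells were higher in the foxes, with 1 T cell marker (CD3G) and 1 erythroid marker (HEMGN) lower. Among all genes 44.6% were higher and 18.5% lower. By share called, monocyte, T cell and platelet markers stood less far from this background than the other blood lists. By median difference the order was another: 1.61 for platelet, 0.79 for monocyte, 0.76 for T cell and 0.70 for B cell markers. It was 4.17 for neutrophil and 1.01 for erythroid markers, and 0.53 over all genes. Of organ markers, 11 of 13 of liver, 9 of 13 of intestine and stomach and 6 of 9 of muscle were lower in the foxes, with 1 higher of intestine and stomach and 1 of muscle. Lung and cornea gave 4 higher and 3 lower of 8, kidney 4 higher and 3 lower of 9, and skin and squamous epithelium 3 higher and 0 lower of 6. The list of lung and cornea holds the surfactant gene SFTPC, which differed by −4.54, while the skin genes lay within 1 log2 unit of the control.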
